A study of Rattus norvegicus with 15 samples.

Results

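The DNA break repair and checkpoint genes are a set of 44 genes chosen by their symbols for known roles in the repair of broken DNA and in the checkpoint that breaks set off. They were followed in primary cultures of rat brain microvascular endothelial cells (BMECs) after x-ray exposure. A member's level was the sum of the FPKM (fragments scaled to the length of the transcript and to the mapped total of the library) of all its transcripts in a library. By name, 43 of the 44 members were matched in the deposited table, and 41 averaged at least 0.5 FPKM across the 15 libraries and were tested among 17895 genes and unnamed loci. Polq and Rnf8 were below that level and are given by their values alone, and the effector kinase gene Chek1 was not analysed here.

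The cells came from Sprague-Dawley littermates of both sexes at 2 to 3 weeks of age, and 6 rats in all were used for the study. There were 5 groups of 3 libraries each: an unexposed control group, and cells given 5 Gy or 20 Gy and taken 12 h or 24 h later. Unexposed cells went through every step but the x-rays and were labelled as cultured for 12 h. There was no unexposed culture of 24 h, so a change at 24 h after exposure and a change from a longer time in culture cannot be told apart. The labels did not say which libraries came from separate animals or dishes, so the p-values measure the spread between these libraries. An estimated 5.44 to 7.49 gigabases of reads were aligned per library, which puts the estimated reads of a tested member between 0 (Exo1 and Bard1, in 1 library each) and 8032 (Tp53bp1).

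A double-strand break can be joined end to end, or it can be repaired by copying the sister chromatid. In the first route Ku (Xrcc5 and Xrcc6) binds the ends, DNA-PKcs (Prkdc) joins it, and the ligase complex of Lig4, Xrcc4 and Nhej1 seals them. In the second, homologous recombination, the ends are resected, Brca1 and Brca2 with their partners prepare the strand for exchange with the sister copy, and the route works after DNA has been copied, in S and G2 phase. The Fanconi anemia proteins unhook crosslinks and share partners with homologous recombination. Atm and Atr are the kinases that signal the break, and 53BP1 (Tp53bp1), Mdc1, Rnf8 and Rnf168 build the marked chromatin around it. Many genes of homologous recombination are known to be transcribed with the cell cycle, under E2F factors.

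In these libraries Brca1, Bard1, Rad51ap1, Xrcc2, Rad54l, Exo1, Fanca, Fancd2, Fanci, Topbp1 and Clspn, 11 members in all, fell below the control level at 24 h after both doses. They held 5 of the 9 genes of strand exchange and 3 of the 7 Fanconi anemia genes, and the other 4 of each role were not called lower at 24 h. Over the same time 4 members rose after both doses: Msh6 of mismatch repair, Rnf168 and Tp53bp1 of the break chromatin, and Xrcc4 of end joining. With named transcripts alone Xrcc4 did not rise and the calls of Tp53bp1 were lost. The kinase genes Atm and Atr, the sensors Rad50 and Nbn, and Parp1 were among 21 members called in no comparison with the control group. How many of all genes fell or rose after both doses, or were called in no comparison, was not counted. These member counts thus have no matching share, and shares for single comparisons follow. A call here is a limma adjusted p (Benjamini-Hochberg, over all genes tested) under 0.05 with a change of at least 1.5-fold on the log2(FPKM + 1) scale. A fold printed beside a log2 change is the quotient of the mean FPKM of both groups, and the log2 change is the smaller for genes of low level.

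At 12 h after 5 Gy, 10 of the 41 tested members were lower (24.4%) against 4.96% of all genes tested, and 1 was higher, against 4.98% of all genes. At 12 h after 20 Gy, 1 was lower, against 3.64% of all genes, and 1 was higher, against 4.9%. The count lower at 24 h after 5 Gy was 13 members (31.7%), against 20.8% of all genes, and 4 members were higher, against 20.5%. For 24 h after 20 Gy, 11 members were lower (26.8%) against 23.3% of all genes, and 6 were higher, against 17% of all genes. At 24 h the share of members lower was thus not far above that of all genes, while at 12 h after 5 Gy it was several times larger. The median log2 fold change of the members at 12 h was -0.25 after 5 Gy and -0.16 after 20 Gy, beside 0.03 and 0.01 for all genes. At 24 h it was -0.19 after 5 Gy and -0.28 after 20 Gy, beside -0.05 and -0.14 for all genes. At an unadjusted p under 0.05, in limma, 24 and 18 members passed at 12 h, for 5 Gy and 20 Gy, and 27 and 29 at 24 h. The 4 comparisons share the control libraries and are given side by side.

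**Figure D1:**
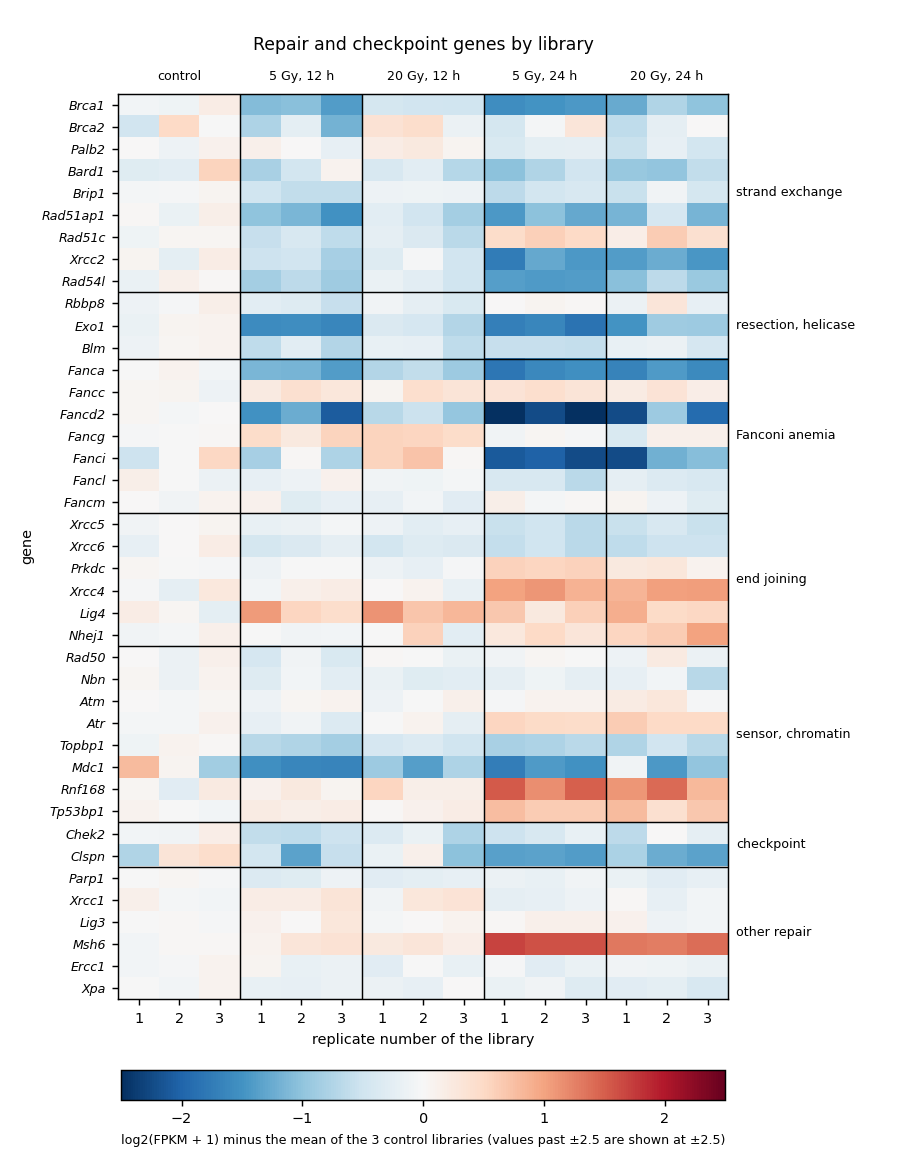
Colour shows log2(FPKM + 1) of each of the 41 tested members in each of the 15 libraries, minus the mean of the 3 control libraries of that gene, with members in rows by role and libraries in columns by group. The blue blocks of Exo1, Fanca, Fancd2 and Brca1 fill all 6 columns of both 24 h groups, the red ones of Msh6, Rnf168, Xrcc4 and Tp53bp1 begin at 24 h, and the end joining and sensor genes are mostly pale at 12 h.

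The cell label was set against marker genes. Of the endothelial genes, 3 that define the cell type were low or near 0: Cdh5 (VE-cadherin) was at most 0.275 FPKM in any library, Cldn5 (claudin-5) was at most 0.0328, and Kdr (VEGF receptor 2) lay between 0.288 and 0.866. Of 12 endothelial markers in the table, 3 were at 0 in every library, and the list summed to between 6.38 and 6.98 FPKM in the control libraries. Most of that sum came from Flt1 (VEGF receptor 1), at 1.16 to 5.48 FPKM over the 15 libraries, and Egfl7, an endothelial secreted protein, at 1.4 to 2.83. A list of 7 fibroblast markers summed to between 4163 and 4531 in the control libraries and to between 903 and 1673 at 24 h after 20 Gy, with Col1a1 (a chain of type I collagen) at 467 to 546 and then 25.8 to 42.0. Fn1 (fibronectin) made up most of the control sum, at 2176 to 2557. At 24 h after 20 Gy, 6 of the 7 were called lower, beside 23.3% of all genes. Pdgfra was not called, at 51.7 to 52.6 in the control libraries and 43.8 to 56.1 in that group. A list of 7 pericyte markers summed to between 152.6 and 160.0 in the control libraries and to between 50.3 and 77.3 at 24 h after 20 Gy. Of its 4 tested genes, Anpep, Cspg4 and Pdgfrb were called lower in that group, beside 23.3% of all genes, and Notch3 was not called. In every library 2 of the 7, Kcnj8 and Abcc9, were at 0. Cdh5 and Cldn5 were thus absent or near 0 while Flt1 and Egfl7 were present at a low level, and BMEC is used below as the label alone. In bulk RNA, fewer cells of a type and less RNA per cell cannot be told apart. The part that the fall of most fibroblast markers and of these pericyte markers had in the results below was not tested.

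Homologous recombination genes were known to carry E2F sites near their start, so the promoters were searched for the letters TTTCCCGC, TTTCGCGC, TTTGCCGC and TTTGGCGC on both strands. The window ran from 250 bases before to 50 bases after the outermost RefSeq start of each gene in GRCr8. Of 37 members with a promoter in the table, 9 held at least 1 match (24.3%), beside 620 of 27457 genes in all (2.26%). The 9 were Atm, Bard1, Chek1, Clspn, Fancc, Fancd2, Fancl, Msh6 and Topbp1. Among members lower at 24 h after both doses 4 of 10 held a match, among those higher after both doses 1 of 4 (Msh6), and among those called in neither 24 h comparison 3 of 17. The letters were thus found in members that fell, in one that rose and in members that were not called. A match names letters and no bound factor.

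The promoters of 6 members follow, read 5′ to 3′ on the strand of the gene from RefSeq in GRCr8, with the matched E2F letters in capitals and the last 29 bases after the start. The first 4 belong to members that fell at 24 h after both doses, of those with a match: Fancd2 and Clspn with the largest mean fall and Bard1 and Topbp1 with the smallest. The last 2, Rad50 and Atm, belong to members of the end joining and sensor roles with the smallest change at 24 h. The windows are chr4:148234608-148234736 for Fancd2, chr5:144134537-144134665 for Clspn, chr9:80143727-80143970 for Bard1, chr8:112766691-112766819 for Topbp1, chr10:38362072-38362200 for Rad50 and chr8:62828601-62828878 for Atm. Fancd2, Clspn and Topbp1 are on the forward strand and the other 3 on the reverse strand.
Fancd2: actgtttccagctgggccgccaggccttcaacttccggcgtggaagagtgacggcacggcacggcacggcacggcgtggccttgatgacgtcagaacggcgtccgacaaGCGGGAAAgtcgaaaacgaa
Clspn: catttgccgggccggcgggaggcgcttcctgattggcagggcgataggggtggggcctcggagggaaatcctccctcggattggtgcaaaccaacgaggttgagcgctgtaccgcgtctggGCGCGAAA
Bard1: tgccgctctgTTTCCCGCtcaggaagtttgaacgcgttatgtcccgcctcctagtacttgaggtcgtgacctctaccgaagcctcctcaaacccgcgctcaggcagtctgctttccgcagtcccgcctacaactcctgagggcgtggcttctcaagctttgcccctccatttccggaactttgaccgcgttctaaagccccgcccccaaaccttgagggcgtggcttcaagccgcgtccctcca
Topbp1: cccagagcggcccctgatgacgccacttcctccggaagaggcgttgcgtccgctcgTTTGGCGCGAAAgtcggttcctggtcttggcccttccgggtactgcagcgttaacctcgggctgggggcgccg
Rad50: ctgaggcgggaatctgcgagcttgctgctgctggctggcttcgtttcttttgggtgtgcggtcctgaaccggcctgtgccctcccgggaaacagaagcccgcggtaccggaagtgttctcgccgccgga
Atm: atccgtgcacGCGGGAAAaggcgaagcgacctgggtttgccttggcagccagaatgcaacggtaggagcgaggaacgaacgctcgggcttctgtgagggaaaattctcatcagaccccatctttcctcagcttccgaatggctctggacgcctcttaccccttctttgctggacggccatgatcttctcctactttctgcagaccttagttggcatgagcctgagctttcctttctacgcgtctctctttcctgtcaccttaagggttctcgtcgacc
The first matched base lay 10 bases after the start in Fancd2 and 22 after it in Clspn. Counted from the start, it lay at position -205 in Bard1 and -239 in Atm. Topbp1 held a pair of matches on opposite strands that overlap, and the Rad50 window held none. The letters TTTGAA and TTCGAA of a cell cycle homology element were in 7 of 37 member promoters (18.9%) beside 19.5% of all genes, and CCAAT in 13 of 37 (35.1%) beside 37.8%.

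Of the 9 genes of strand exchange and its mediators, 4 were lower at 12 h after 5 Gy, none was called at 12 h after 20 Gy, and 5 were lower at 24 h after each dose. At 12 h after 5 Gy this was 44.4% of the role, beside 4.96% of all genes, and at 24 h it was 55.6%, beside 20.8% of all genes in the 5 Gy cells and 23.3% in the 20 Gy cells. The same shares of all genes lower, and 3.64% at 12 h after 20 Gy, stand beside the counts of the roles that follow. At 24 h the median log2 change of the role was -0.75 after 5 Gy and -0.85 after 20 Gy. None of the 9 was called higher than the control group. Brca1, which directs ends toward resection and brings in Brca2 through Palb2, lies on chromosome 10 from 89394803 to 89454681 in Rnor_6.0, the build of the deposited files. Its FPKM was 3.08, 2.95 and 3.83 in the control libraries. At 12 h Brca1 was 1.02, 1.07 and 0.618 after 5 Gy and 2.14, 2.07 and 2.00 after 20 Gy. At 24 h Brca1 was 0.448, 0.518 and 0.584 after 5 Gy and 0.770, 1.55 and 1.12 after 20 Gy. Every exposed library was below every control library, and at both times every 5 Gy library was below every 20 Gy library. The fall was 3.65-fold in mean FPKM at 12 h after 5 Gy (log2 -1.18, SE 0.14, limma adjusted p = 0.000118). At 24 h it was 6.36-fold after 5 Gy (log2 -1.49, SE 0.14, limma adjusted p = 1.6e-06) and 2.86-fold after 20 Gy (log2 -1.01, SE 0.14, limma adjusted p = 5.04e-05). At 12 h after 20 Gy the change of -0.47 had a limma adjusted p of 0.0366 but missed the limit of 1.5-fold.

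Brca2, a mediator of strand exchange on resected DNA, was called in no comparison with the control group on its summed FPKM. Its FPKM was 2.00, 4.91 and 3.18 in the control libraries. At 12 h Brca2 was 1.46, 2.54 and 0.840 after 5 Gy and 4.42, 4.69 and 2.77 after 20 Gy. At 24 h Brca2 was 2.08, 3.08 and 4.21 after 5 Gy and 1.71, 2.61 and 3.21 after 20 Gy. Libraries of all 4 exposed groups overlapped with the control group, whose own values were uneven, and the log2 changes lay between -0.74 and 0.22 with limma adjusted p-values from 0.112 to 0.878. Unnamed assembled transcripts held 94.3% of the FPKM summed for Brca2, and its transcript with the highest FPKM changed by -0.89 at 12 h after 20 Gy where the sum changed by 0.22. The estimated reads of Brca2, not scaled to depth, were 850.6, 882.6 and 1085.3 in the control libraries. At 12 h they were lower in every library, at 543.0, 566.9 and 388.3 after 5 Gy and 725.0, 752.8 and 618.7 after 20 Gy. At 24 h the reads overlapped with those of the control group after both doses.

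Rad51ap1, which helps strands pair, was 4.13, 3.50 and 4.55 FPKM in the control libraries. At 12 h Rad51ap1 was 1.51, 1.29 and 0.767 after 5 Gy and 3.21, 2.62 and 1.79 after 20 Gy. At 24 h Rad51ap1 was 0.860, 1.47 and 1.07 after 5 Gy and 1.25, 2.79 and 1.25 after 20 Gy. All exposed libraries lay below the control libraries, and the log2 change after 5 Gy was -1.22 at 12 h and -1.25 at 24 h, beside -0.53 and -0.91 after 20 Gy. Unnamed assembled transcripts held 82.9% of the FPKM of Rad51ap1, and all of its calls, which were those of 5 Gy at 12 h and of both doses at 24 h, were lost with its most abundant transcript alone. Xrcc2, of a complex that assists strand exchange, was 3.66, 2.76 and 4.08 FPKM in the control libraries. At 12 h Xrcc2 was 2.10, 2.22 and 1.5 after 5 Gy and 2.59, 3.36 and 2.19 after 20 Gy. At 24 h Xrcc2 was 0.322, 0.849 and 0.658 after 5 Gy and 0.702, 0.900 and 0.623 after 20 Gy. No 24 h library of Xrcc2 reached the lowest 12 h library, and both doses gave nearly the same level. Against the control group, the 24 h fall was 5.74-fold after 5 Gy (log2 -1.48, SE 0.17, limma adjusted p = 7.7e-06) and 4.71-fold after 20 Gy (log2 -1.36, SE 0.17, limma adjusted p = 1.76e-05). Its call at 12 h after 5 Gy (log2 -0.61) was lost when any of control library 1, control library 3 or exposed library 3 was left out, with a pseudocount of 0.1, and with named transcripts or the most abundant transcript alone.

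Rad54l, a motor protein that works on chromatin during strand exchange, was 2.03, 2.67 and 2.46 FPKM in the control libraries. At 12 h Rad54l was 0.866, 1.15 and 0.826 after 5 Gy and 2.02, 1.81 and 1.39 after 20 Gy. At 24 h Rad54l was 0.304, 0.273 and 0.275 after 5 Gy and 0.637, 1.14 and 0.782 after 20 Gy. The 24 h libraries after 5 Gy were the lowest of all and nearly alike, an 8.41-fold fall from the control group (log2 -1.40, SE 0.13, limma adjusted p = 1.34e-06). Bard1, the partner with which Brca1 forms a ubiquitin ligase, was a low gene with an uneven control group of 0.645, 0.705 and 2.01 FPKM. After 24 h it was listed at 0, 0.203 and 0.466 after 5 Gy and at 0.0534, 0.0246 and 0.328 after 20 Gy, below all control libraries. Its change was -0.75 (SE 0.26, limma adjusted p = 0.0259) after 5 Gy and -0.85 (SE 0.26, limma adjusted p = 0.0141) after 20 Gy, and the first was lost without library 1 or library 2 of the 5 Gy group. Estimated reads for Bard1 ranged from 0 to 228.8 per library with a median of 41.3. Bard1 shares its locus with another gene name, and 3 unnamed transcripts there were left out of its sum.

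The other 3 mediators were called in no comparison with the control group. Brip1, the helicase partner of Brca1, had a mean of 0.929 FPKM in the control group and 0.294 at 12 h after 5 Gy (log2 -0.58, limma adjusted p = 0.00505), just inside the fold limit. Palb2, the bridge between Brca1 and Brca2, went from 1.19 in the control group to 0.796 and 0.661 at 24 h after 5 Gy and 20 Gy, with log2 changes of -0.29 and -0.40. Rad51c, which shares a complex with Xrcc3, took a course of its own, with means of 2.98 in the control group, 1.74 and 2.00 at 12 h and 4.70 and 4.31 at 24 h. From 12 h to 24 h Rad51c rose 2.70-fold at 5 Gy (log2 1.06, SE 0.14, limma adjusted p = 3.78e-05) and 2.16-fold at 20 Gy (log2 0.82, SE 0.14, limma adjusted p = 0.000293).

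Exo1, the nuclease that carries out long-range resection, lies on chromosome 13 from 93939022 to 93960342 and was the member that differed between the doses. Its FPKM was 2.24, 2.78 and 2.86 in the control libraries. At 12 h Exo1 was 0.214, 0.237 and 0.173 after 5 Gy and 1.82, 1.70 and 1.18 after 20 Gy. At 24 h Exo1 was 0.107, 0.167 and 0 after 5 Gy and 0.292, 0.948 and 0.930 after 20 Gy. Exposed libraries were all below the control libraries, and at each time those of 5 Gy were all below those of 20 Gy. The mean fell 12.6-fold at 12 h after 5 Gy (log2 -1.58, SE 0.16, limma adjusted p = 3.08e-05) and 28.7-fold at 24 h after 5 Gy (log2 -1.73, SE 0.16, limma adjusted p = 1.21e-06). After 20 Gy it fell 3.63-fold at 24 h (log2 -1.10, SE 0.16, limma adjusted p = 6.55e-05). The lowest libraries rested on few reads, with an estimated 0 to 225.4 reads per library, and the library listed at 0 is no proof of absence. Of the FPKM of Exo1, 57.1% came from an unnamed assembled transcript.

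The other 2 genes of the resection and helicase role were not called. Rbbp8 (CtIP), which starts resection, had a mean of 7.13 FPKM in the control group and between 5.23 and 7.30 in the exposed groups. Blm, the helicase of Bloom syndrome, had a mean of 2.08 in the control group and 1.05 at 24 h after 5 Gy, a log2 change of -0.58 (limma adjusted p = 0.00443) that missed the fold limit.

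In the Fanconi anemia role, 2 of 7 genes were lower at 12 h after 5 Gy and 1 after 20 Gy, 3 were lower at 24 h for each dose, and none was higher. Fancd2, which with Fanci forms the clamp that is ubiquitinated when crosslinks are met, lies on chromosome 4 from 145489869 to 145551479. Its FPKM was 11.8, 10.9 and 11.5 in the control libraries. At 12 h Fancd2 was 3.31, 4.23 and 1.94 after 5 Gy and 6.66, 7.51 and 5.34 after 20 Gy. At 24 h Fancd2 was 1.01, 1.62 and 0.653 after 5 Gy and 1.61, 5.63 and 2.27 after 20 Gy. The 3 control libraries were close to each other and above all 12 exposed libraries. At 24 h after 5 Gy the fall was 10.4-fold (log2 -2.59, SE 0.30, limma adjusted p = 1.07e-05), the deepest log2 change of any member in a comparison with the control group. After 20 Gy it was 3.59-fold (log2 -1.69, SE 0.30, limma adjusted p = 0.00039), with library 2 well above the other two.

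Fanci, its partner on chromosome 1 from 141120166 to 141172483, overlapped with the control group in FPKM at 12 h and was lower at 24 h. Its FPKM was 7.13, 10.6 and 15.6 in the control libraries. At 12 h Fanci was 5.52, 10.8 and 5.83 after 5 Gy and 16.0, 18.0 and 10.8 after 20 Gy. At 24 h Fanci was 1.69, 1.86 and 1.47 after 5 Gy and 1.46, 4.05 and 4.57 after 20 Gy. In FPKM the 12 h libraries overlapped with the control group and the 24 h libraries lay below it. The estimated reads of Fanci, not scaled to depth, were 1138.6, 1538.9 and 1928.1 in the control libraries. At 12 h after 5 Gy they were all lower, at 781.5, 984.5 and 572.0. Those at 12 h after 20 Gy overlapped with the control group, at 1610.1, 1764.8 and 1226.1. The 24 h fall was 6.63-fold after 5 Gy (log2 -2.12, SE 0.34, limma adjusted p = 0.000144) and 3.30-fold after 20 Gy (log2 -1.50, SE 0.34, limma adjusted p = 0.00206). For Fancd2 and Fanci, unnamed assembled transcripts at the locus held 100% of the summed FPKM, so these values are those of the assembled transcripts. With the most abundant transcript alone Fancd2 lost its calls of 5 Gy at 12 h and of 20 Gy at 24 h.

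Fanca, of the core complex that ubiquitinates Fancd2 and Fanci, was the 1 member lower in all 4 comparisons with the control group. It was 3.61, 3.89 and 3.40 FPKM in the control libraries. At 12 h Fanca was 1.11, 1.07 and 0.752 after 5 Gy and 1.79, 2.02 and 1.48 after 20 Gy. At 24 h Fanca was 0.316, 0.510 and 0.605 after 5 Gy and 0.464, 0.747 and 0.527 after 20 Gy. At each dose the 12 h libraries all lay below the control libraries and the 24 h libraries all lay below those of 12 h. The log2 changes after 5 Gy were -1.23 at 12 h and -1.65 at 24 h, and after 20 Gy -0.75 and -1.56, each with SE 0.12, and the largest limma adjusted p of the 4 was 0.00117. Unnamed assembled transcripts held 91.0% of the FPKM of Fanca, and its call at 12 h after 20 Gy was lost with the most abundant transcript alone and with a limit of 2-fold.

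The other 4 genes of the core complex and its anchor were not called against the control group. At 12 h Fancg went from 1.86 in the control group to 2.84 and 3.11 after 5 Gy and 20 Gy, with log2 changes of 0.42 and 0.52 that missed the fold limit, and was at 1.81 in both 24 h groups. Fancc, the lowest of the role, was 0.545 in the control group and 0.819 to 0.982 in the exposed groups. Fancl, the ligase subunit, was 5.94 in the control group and 3.94 and 4.52 at 24 h after 5 Gy and 20 Gy, with log2 changes of -0.49 (limma adjusted p = 0.00215) and -0.33 (limma adjusted p = 0.0237). Fancm, the translocase that binds the complex to DNA, stayed between group means of 2.95 and 3.63.

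**Figure D2:**
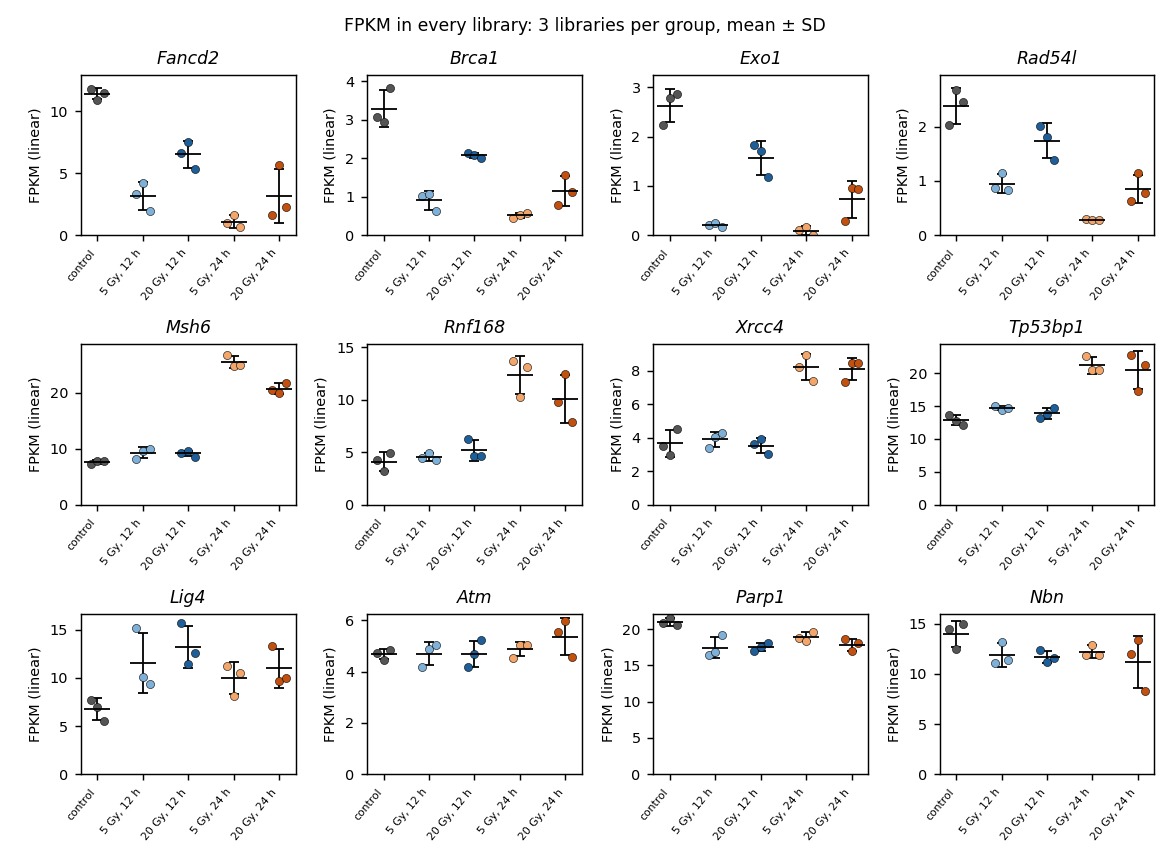
Each panel plots the FPKM (linear axis from 0) of 1 member in the 3 libraries of each group as points, with the mean and SD. Fancd2, Brca1, Exo1 and Rad54l are highest in the control group and lowest at 24 h after 5 Gy, Msh6, Rnf168, Xrcc4 and Tp53bp1 are raised at 24 h, and Atm, Parp1 and Nbn stay near the control level.

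End joining genes were called in both directions. Of 6 tested genes, 1 was higher and none lower at 12 h after each dose, beside 4.98% and 4.9% of all genes higher. At 24 h, 1 was higher (16.7%) and 1 lower (16.7%) after 5 Gy, beside 20.5% of all genes higher and 20.8% lower. After 20 Gy at that time, 3 were higher (50%) and none lower, beside 17% and 23.3% of all genes. Lig4, the ligase that closes the joined ends, lies on chromosome 16 from 85331866 to 85337769 and was called higher in 3 of the 4 comparisons. Its FPKM was 7.72, 6.98 and 5.49 in the control libraries. At 12 h Lig4 was 15.2, 10.1 and 9.38 after 5 Gy and 15.7, 11.4 and 12.6 after 20 Gy. At 24 h Lig4 was 11.2, 8.10 and 10.5 after 5 Gy and 13.3, 9.67 and 9.98 after 20 Gy. In FPKM, no exposed library fell to the control level, and library 1 was the highest in each exposed group. Of the FPKM of Lig4, 71.6% came from unnamed assembled transcripts. Its estimated reads, not scaled to depth, were 1695.2, 1471.8 and 1245.3 in the control libraries. At 24 h they overlapped with these, at 1691.8, 1190.3 and 1614.6 after 5 Gy and 2181.5, 1685.0 and 1347.0 after 20 Gy. At 12 h the reads of every exposed library were above those of every control library. The rise was 1.96-fold at 12 h after 20 Gy (log2 0.88, SE 0.19, limma adjusted p = 0.00794) and 1.72-fold at 12 h after 5 Gy (log2 0.68, SE 0.19, limma adjusted p = 0.0258). The call at 12 h after 5 Gy was lost without control library 2, control library 3 or exposed library 1. At 24 h Lig4 changed by 0.50 after 5 Gy, inside the fold limit, and by 0.63 after 20 Gy (SE 0.19, limma adjusted p = 0.0129), a call lost without control library 3 or exposed library 1.

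Xrcc4, the scaffold that holds Lig4, overlapped with the control group at 12 h and was higher at 24 h. It was 3.50, 2.95 and 4.52 FPKM in the control libraries. At 12 h Xrcc4 was 3.38, 4.05 and 4.28 after 5 Gy and 3.63, 3.93 and 3.04 after 20 Gy. At 24 h Xrcc4 was 8.25, 8.97 and 7.41 after 5 Gy and 7.32, 8.45 and 8.49 after 20 Gy. All 6 libraries of 24 h were above all 9 others, by 2.24-fold over the control mean after 5 Gy (log2 0.99, SE 0.13, limma adjusted p = 3.32e-05) and 2.21-fold after 20 Gy (log2 0.97, SE 0.13, limma adjusted p = 4.16e-05). Unnamed assembled transcripts held 63.6% of the FPKM of Xrcc4, and with named transcripts alone the 24 h changes were -0.25 after 5 Gy and -0.06 after 20 Gy. The rise of Xrcc4 was thus a rise of the unnamed transcripts at its locus. Nhej1 (XLF), the third member of the ligase complex, was 0.915, 0.958 and 1.20 FPKM in the control libraries. At 12 h Nhej1 was 1.00, 0.896 and 0.929 after 5 Gy and 1.00, 2.03 and 0.689 after 20 Gy. At 24 h Nhej1 was 1.44, 1.87 and 1.48 after 5 Gy and 1.95, 2.16 and 3.04 after 20 Gy. Only the last group was called (2.32-fold, log2 0.73, SE 0.19, limma adjusted p = 0.00447), although the 24 h libraries after 5 Gy also lay above the control libraries. Unnamed transcripts held 46.0% of the FPKM of Nhej1, and the call was lost with named transcripts alone and with the most abundant transcript alone.

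Of the Ku genes, Xrcc6 was called lower in 1 comparison with the control group and Xrcc5 in none. Xrcc6 (Ku70) was 15.5, 18.2 and 20.5 FPKM in the control libraries. At 12 h Xrcc6 was 13.0, 13.7 and 15.3 after 5 Gy and 12.8, 14.1 and 13.7 after 20 Gy. At 24 h Xrcc6 was 11.6, 12.4 and 10.9 after 5 Gy and 11.2, 12.2 and 12.3 after 20 Gy. All exposed libraries were below the control libraries, and the change of -0.59 at 24 h after 5 Gy (SE 0.10, limma adjusted p = 0.000215) passed the fold limit where -0.56 at 24 h after 20 Gy (SE 0.10, limma adjusted p = 0.000359) did not. The call rested on this limit and was lost without control library 2, control library 3 or 5 Gy library 3. For its most abundant transcript alone the change at 24 h after 5 Gy was 0.02. Xrcc5 (Ku80) was 14.3, 15.4 and 15.9 FPKM in the control libraries. At 12 h Xrcc5 was 13.2, 13.7 and 14.7 after 5 Gy and 13.8, 12.6 and 13.0 after 20 Gy. At 24 h Xrcc5 was 9.97, 10.5 and 9.10 after 5 Gy and 10.0, 11.3 and 9.98 after 20 Gy. Its 24 h changes of -0.58 and -0.50 had small limma adjusted p-values (4.78e-05 and 0.000158) and stayed just inside the fold limit.

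Prkdc (DNA-PKcs), the kinase that Ku recruits, was 5.55, 5.25 and 5.21 FPKM in the control libraries. At 12 h Prkdc was 4.76, 5.28 and 5.26 after 5 Gy and 4.78, 4.46 and 5.20 after 20 Gy. At 24 h Prkdc was 8.38, 8.21 and 8.47 after 5 Gy and 6.46, 6.72 and 5.74 after 20 Gy. The 24 h libraries were above all others, and those of 5 Gy above those of 20 Gy. The change at 24 h after 5 Gy was 0.56 (SE 0.08, limma adjusted p = 7.04e-05), inside the fold limit. Polq, the polymerase of end joining by microhomology, was 0.738, 0.706 and 0.694 FPKM in the control libraries and was not tested. At 12 h Polq was 0.225, 0.346 and 0.148 after 5 Gy and 0.533, 0.606 and 0.539 after 20 Gy. At 24 h Polq was 0.0516, 0.0388 and 0.0161 after 5 Gy and 0.214, 0.315 and 0.275 after 20 Gy. Its order of groups was that of Brca1 and Exo1, with no overlap between the control libraries and any exposed library.

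**Figure D3:**
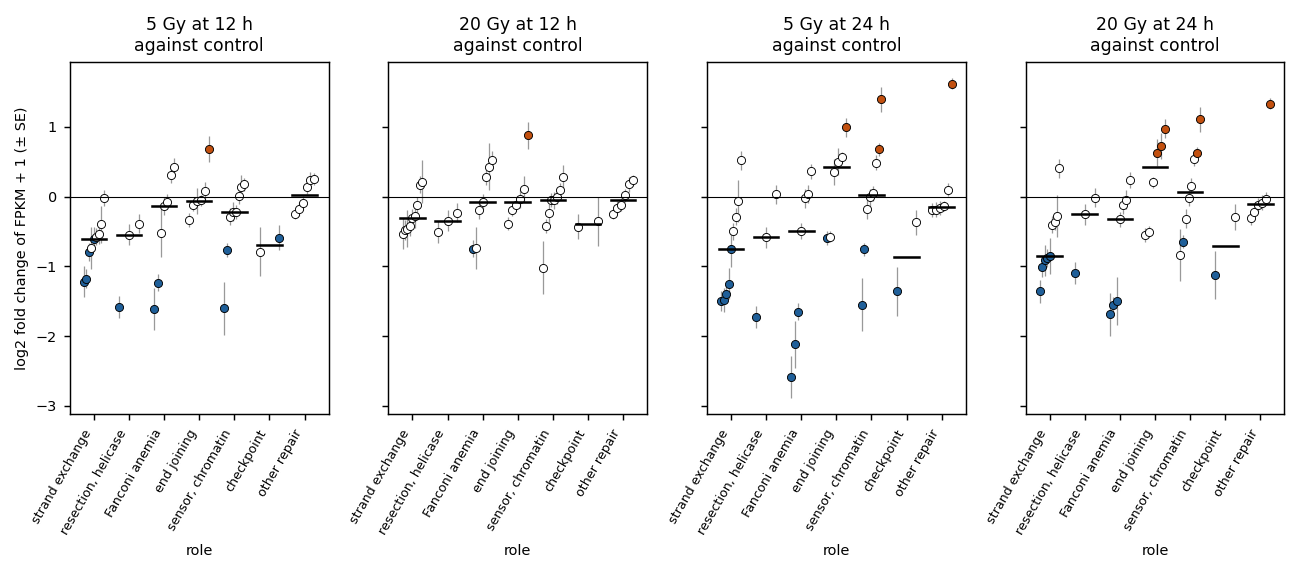
Each panel plots the log2 fold change of FPKM + 1 (± SE) of the 41 tested members in 1 comparison with the control group, by role, with black bars at the median of the role. Blue points were called lower, orange points higher and open points were not called. The strand exchange median was -0.61 and -0.31 at 12 h and -0.75 and -0.85 at 24 h, while that of end joining went from -0.06 and -0.08 at 12 h to 0.43 and 0.42 at 24 h.

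Among the sensors and the chromatin mark, 2 of 8 tested genes were lower at 12 h after 5 Gy and none was called at 12 h after 20 Gy. At 24 h, 2 were lower and 2 higher after 5 Gy, and 1 was lower and 2 higher after 20 Gy. Atm, the kinase activated at double-strand breaks, was 4.73, 4.46 and 4.85 FPKM in the control libraries. At 12 h Atm was 4.18, 4.87 and 5.05 after 5 Gy and 4.18, 4.68 and 5.22 after 20 Gy. At 24 h Atm was 4.55, 5.04 and 5.03 after 5 Gy and 5.56, 5.95 and 4.58 after 20 Gy. Each exposed group overlapped with the control group, and the log2 changes lay between 0.00 and 0.16. Of the FPKM of Atm, 75.7% came from unnamed assembled transcripts. Atr, the kinase that answers to single-stranded DNA, was 3.95, 3.96 and 4.53 FPKM in the control libraries. At 12 h Atr was 3.44, 3.81 and 3.04 after 5 Gy and 4.12, 4.42 and 3.38 after 20 Gy. At 24 h Atr was 6.42, 6.13 and 6.08 after 5 Gy and 6.97, 6.25 and 6.23 after 20 Gy. All 24 h libraries of Atr were above all others. The changes from the control group of 0.49 and 0.54 (limma adjusted p = 0.00119 and 0.000569) stayed inside the fold limit.

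Nbn (nibrin), of the complex that first binds the break, was 14.5, 12.5 and 15 FPKM in the control libraries. At 12 h Nbn was 11.0, 13.2 and 11.4 after 5 Gy and 12.4, 11.2 and 11.5 after 20 Gy. At 24 h Nbn was 11.8, 12.9 and 11.9 after 5 Gy and 12.0, 13.4 and 8.32 after 20 Gy. Its log2 changes lay between -0.18 and -0.32 and none passed the test. Rad50, its partner in that complex, had group means from 7.71 to 9.63. Topbp1, which activates Atr, was 8.17, 9.48 and 9.10 FPKM in the control libraries. At 12 h Topbp1 was 5.13, 4.85 and 4.53 after 5 Gy and 6.38, 6.87 and 5.97 after 20 Gy. At 24 h Topbp1 was 4.61, 4.81 and 5.17 after 5 Gy and 4.87, 6.10 and 5.10 after 20 Gy. At 12 h after 5 Gy the fall was already 1.84-fold (log2 -0.76, SE 0.10, limma adjusted p = 0.000169), and was 1.83-fold at 24 h (log2 -0.76, SE 0.10, limma adjusted p = 2.08e-05). After 20 Gy it was 1.67-fold at 24 h (log2 -0.65, SE 0.10, limma adjusted p = 8.66e-05), a call lost with its most abundant transcript alone. Of the FPKM of Topbp1, 98.2% came from unnamed assembled transcripts.

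Mdc1, the scaffold that reads phosphorylated H2AX, was 5.52, 2.95 and 1.05 FPKM in the control libraries. At 12 h Mdc1 was 0.299, 0.218 and 0.192 after 5 Gy and 0.991, 0.451 and 1.19 after 20 Gy. At 24 h Mdc1 was 0.132, 0.412 and 0.309 after 5 Gy and 2.54, 0.379 and 0.894 after 20 Gy. It was called lower after 5 Gy at both times (log2 -1.60 and -1.55, SE 0.38, limma adjusted p = 0.0106 and 0.00333), although its control libraries differed among themselves by over 5 times. Mdc1 shares its locus with other gene names in the assembly, its estimated reads ranged from 2.5 to 467.1 with a median of 9.4, and its level is uncertain. Rnf8, the first ubiquitin ligase at the break, was not tested, with group means of 0.0771 in the control group, 0.733 and 0.101 at 12 h and 24 h after 5 Gy, and 0.585 and 0.0944 after 20 Gy. It too lies in a locus with several names.

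Rnf168, the ligase that spreads the ubiquitin mark on H2A, lies on chromosome 11 from 71721250 to 71743421 and was among the genes that rose most. Its FPKM was 4.23, 3.16 and 4.89 in the control libraries. At 12 h Rnf168 was 4.44, 4.94 and 4.26 after 5 Gy and 6.29, 4.59 and 4.60 after 20 Gy. At 24 h Rnf168 was 13.6, 10.2 and 13.1 after 5 Gy and 9.81, 12.4 and 7.85 after 20 Gy. The 12 h libraries overlapped with the control group and the 24 h libraries stood above both. The rise at 24 h was 3.01-fold after 5 Gy (log2 1.39, SE 0.18, limma adjusted p = 1.97e-05) and 2.45-fold after 20 Gy (log2 1.11, SE 0.18, limma adjusted p = 0.000146). Tp53bp1 (53BP1), which binds that mark and holds ends back from resection, was 13.7, 12.7 and 12.2 FPKM in the control libraries. At 12 h Tp53bp1 was 15, 14.4 and 14.7 after 5 Gy and 13.1, 13.8 and 14.7 after 20 Gy. At 24 h Tp53bp1 was 22.6, 20.4 and 20.5 after 5 Gy and 22.8, 17.3 and 21.2 after 20 Gy. The rise at 24 h was 1.65-fold after 5 Gy (log2 0.68, SE 0.09, limma adjusted p = 4.46e-05) and 1.59-fold after 20 Gy (log2 0.62, SE 0.09, limma adjusted p = 9.84e-05). Both calls of Tp53bp1 stood close to the fold limit and were lost with quantile normalization and with named transcripts alone, and the one after 20 Gy also without library 1 of that group. Of its FPKM, 70.1% came from unnamed assembled transcripts.

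Of the checkpoint genes, Chek2, the effector kinase of Atm, was 3.98, 3.86 and 4.80 FPKM in the control libraries. At 12 h Chek2 was 2.37, 2.35 and 2.62 after 5 Gy and 3.10, 3.61 and 2.02 after 20 Gy. At 24 h Chek2 was 2.62, 2.95 and 3.55 after 5 Gy and 2.30, 4.23 and 3.43 after 20 Gy. It was called lower at 12 h after 5 Gy alone (log2 -0.59, SE 0.18, limma adjusted p = 0.0374), and that call was lost when any 1 of the 6 libraries compared was left out. Clspn (claspin), the adaptor through which Atr reaches its effector kinase, was 0.576, 2.33 and 2.62 FPKM in the control libraries. At 12 h Clspn was 0.938, 0.0587 and 0.802 after 5 Gy and 1.39, 1.90 and 0.319 after 20 Gy. At 24 h Clspn was 0.0466, 0.0590 and 0.0170 after 5 Gy and 0.545, 0.123 and 0.0542 after 20 Gy. The 24 h libraries lay below the control libraries, which were uneven (log2 -1.36, SE 0.35, limma adjusted p = 0.00465 after 5 Gy, and log2 -1.13, SE 0.35, limma adjusted p = 0.0141 after 20 Gy). The call after 20 Gy was lost without control library 2 or control library 3, and Clspn lies in a locus with several names.

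Of the 6 genes of single-strand break, mismatch and excision repair, 1 was called (16.7%), and it rose at 24 h after both doses. The shares of all genes higher at 24 h were 20.5% after 5 Gy and 17% after 20 Gy. Msh6, which recognises mismatches, lies on chromosome 6 from 11644578 to 11662499. Its FPKM was 7.24, 7.82 and 7.79 in the control libraries. At 12 h Msh6 was 8.19, 9.66 and 10.0 after 5 Gy and 9.23, 9.61 and 8.60 after 20 Gy. At 24 h Msh6 was 26.7, 24.8 and 25.0 after 5 Gy and 20.4, 19.9 and 21.8 after 20 Gy. Spread within groups was small, and the 24 h libraries were 3.35-fold above the control mean after 5 Gy (log2 1.62, SE 0.08, limma adjusted p = 9.3e-09) and 2.72-fold above it after 20 Gy (log2 1.33, SE 0.08, limma adjusted p = 4.45e-08). Named transcripts carried nearly all of it, since 3.30% of its FPKM came from unnamed ones.

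Parp1, the sensor of single-strand breaks, was 20.8, 21.6 and 20.5 FPKM in the control libraries. At 12 h Parp1 was 16.4, 16.9 and 19.1 after 5 Gy and 17.0, 17.5 and 18.0 after 20 Gy. At 24 h Parp1 was 18.8, 18.4 and 19.6 after 5 Gy and 18.6, 17.0 and 18.0 after 20 Gy. Every exposed library was below every control library, by a log2 value of no more than 0.25 in the group means, so that it passed the p limit in 3 of the 4 comparisons and the fold limit in none. Xrcc1 and Lig3, the scaffold and ligase of single-strand break repair, had group means from 26.8 to 36.3 and from 11.4 to 12.9. Ercc1, of the nuclease that cuts at damaged bases and crosslinks, went from 14.4 in the control group to between 12.7 and 13.5. For the named transcript of Ercc1 alone the change at 12 h after 5 Gy was 1.73 where the sum changed by -0.09. Xpa, which places that nuclease, had 2.12 in the control group and 1.52 at 24 h after 20 Gy (log2 -0.31, limma adjusted p = 0.0161).

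From 12 h to 24 h after the same dose, members moved in both directions. At 5 Gy, 6 members were higher at 24 h, against 17.1% of all genes, and 4 were lower, against 19.3%. At 20 Gy, 6 were higher, against 14.1%, and 5 were lower, against 22.1%. Atr, Msh6, Rad51c, Rnf168 and Xrcc4 were higher at both doses, with Prkdc at 5 Gy and Nhej1 at 20 Gy. Fancd2, Fanci and Xrcc2 were lower at both doses, with Rad54l at 5 Gy and Exo1 and Fanca at 20 Gy. The largest rise was that of Msh6 at 5 Gy (2.75-fold, log2 1.37, SE 0.08, limma adjusted p = 4.6e-08), and the largest fall that of Fanci at 20 Gy (4.45-fold, log2 -1.93, SE 0.34, limma adjusted p = 0.00038). Prkdc rose by 0.62 at 5 Gy (SE 0.08, limma adjusted p = 4.05e-05) and Atr by 0.70 at 5 Gy (SE 0.10, limma adjusted p = 8e-05) and 0.59 at 20 Gy (SE 0.10, limma adjusted p = 0.000329). In shares, the members higher were 14.6% at each dose, and those lower were 9.76% at 5 Gy and 12.2% at 20 Gy, about as many as among all genes or fewer. The count at 20 Gy was 17 in place of 11 without library 2 of the 24 h group, the library in which Fancd2 and Rad51ap1 were highest.

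The doses were compared directly at each time. Exo1 was called at both, at 12 h beside 0.123% of all genes called in either direction and at 24 h beside 2.42%. Exo1 was 7.53-fold higher after 20 Gy than after 5 Gy at 12 h (log2 1.08, SE 0.16, limma adjusted p = 0.0213) and 7.90-fold higher at 24 h (log2 0.64, SE 0.16, limma adjusted p = 0.0408), with no overlap between the doses at either time. When each of the 15 libraries was left out in turn, no member was called in 5 of the fits at 12 h and in 11 at 24 h, so the call of Exo1 was lost in these. No member was called at either time with the most abundant transcript alone or when only the groups compared were fitted. The same held at 12 h with a pseudocount of 0.1, and at 24 h with the replicate block or a limit of 2-fold. With named transcripts alone no member was called either, but Exo1 was not tested there, as its level was below the filter of 0.5 FPKM. Fancd2 differed by 0.88 at 12 h and 0.90 at 24 h (SE 0.30, limma adjusted p = 0.52 and 0.118), and Brca1 by 0.70 and 0.49 (SE 0.14, limma adjusted p = 0.0923 and 0.0719). Rad54l differed by 0.49 and 0.52 (SE 0.13, limma adjusted p = 0.232 and 0.0402), the second inside the fold limit, and Prkdc by -0.36 at 24 h (SE 0.08, limma adjusted p = 0.0291). Of the 41 members, 26 were higher after 20 Gy at 12 h and 23 at 24 h, with medians of 0.15 and 0.05 beside -0.01 and -0.07 for all genes. At an unadjusted p under 0.05 there were 10 members at 12 h and 7 at 24 h. Whether the gap between doses changed with time was tested as an interaction, which called 0 members in limma, beside 0.553% of all genes, with 4 at an unadjusted p under 0.05.

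**Figure D4:**
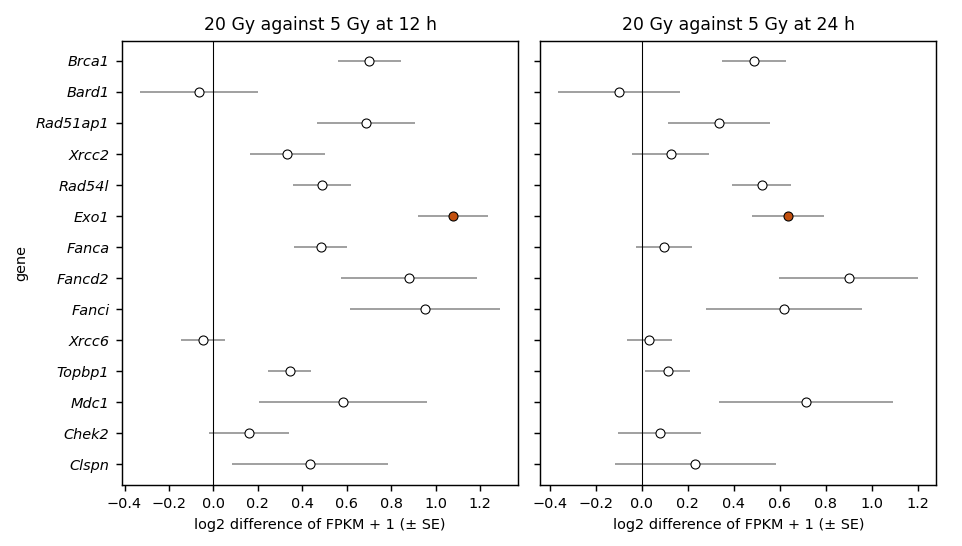
Points show the log2 difference of FPKM + 1 between 20 Gy and 5 Gy (± SE) at 12 h and at 24 h for the 14 members called lower in at least 1 comparison with the control group, a choice that used the same libraries. Filled points were called, which holds for Exo1 at both times, and Bard1 lay below 0 in both panels.

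Most genes that the cell cycle drives were lower too. Of 19 tested genes of proliferation and S phase, 16 were lower at 12 h after 5 Gy, 13 in the 20 Gy cells of that time and 16 at 24 h for each dose, with medians of -1.71, -0.97, -2.52 and -1.80, beside 4.96%, 3.64%, 20.8% and 23.3% of all genes lower. None was higher at 12 h, Tyms (thymidylate synthase) was higher at 24 h after both doses (log2 0.65 and 0.72), and Gins2, of the replicative helicase, was higher at 24 h after 20 Gy (log2 1.04). Mki67, a marker of cycling cells, was 12.7 FPKM in the control group, 3.23 and 0.895 at 12 h and 24 h after 5 Gy, and 8.30 and 3.83 after 20 Gy, so that its level too was lower after 5 Gy than after 20 Gy. Mki67 differed between the doses by 1.14 at 12 h and 1.30 at 24 h on the log2 scale, with limma adjusted p-values of 0.0318 and 0.00176. Mcm5, of the replicative helicase, went from 24.7 in the control group to 3.60 and 7.64 at 12 h and 1.26 and 3.11 at 24 h. Of 15 tested genes of the p53 response, 8, 10, 12 and 11 were higher in the same 4 comparisons, beside 4.98%, 4.9%, 20.5% and 17% of all genes. Cdkn1a (p21), which arrests the cycle, was 46.8 in the control group, 257 and 631 at 12 h and 334 and 640 at 24 h. The part of cycling cells in the levels of the repair genes was not tested.

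The other 56 tested genes of break repair and checkpoint, a list chosen by name, were called in both directions. There were 4 higher and 13 lower at 12 h after 5 Gy, and 2 higher and 8 lower at 12 h after 20 Gy. At 24 h there were 9 higher and 16 lower after 5 Gy, and 8 higher and 17 lower after 20 Gy. The shares lower at 24 h were 28.6% and 30.4%, beside 20.8% and 23.3% of all genes, and the shares higher were 16.1% and 14.3%, beside 20.5% and 17%. At 12 h the shares lower were 23.2% and 14.3%, beside 4.96% and 3.64%, and the shares higher were 7.14% and 3.57%, beside 4.98% and 4.9%. H2afx, the histone phosphorylated at breaks, was called lower in all 4 comparisons and went from 66.8 FPKM in the control group to 32.8 and 41.2 at 12 h and 5.98 and 5.74 at 24 h. Mre11a, the nuclease that works with Rad50 and Nbn, stayed between 8.43 and 9.78 and was called in none.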

How the data were processed

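Poly(A) RNA of cultured rat cells was sequenced as 150-base reads in 15 libraries. Per the study's methods, the authors trimmed the reads with Trimmomatic, aligned them to Rnor_6.0 with HISAT2 (version 2.0.13) and assembled transcripts with StringTie. They deposited FPKM values for each transcript and library, 85322 transcripts in all, some assembled without a gene name. Whether counting used strand is not given in the sources used here, so reads of overlapping genes may be shared. No tool that the study names for its own tests was used here, and no value of the authors' comparisons was used.

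The FPKM of named transcripts was summed per gene, with unnamed transcripts of a locus added where it held that name alone. Besides the members for which this share is given above, they held 99.8% of the FPKM of Xpa, 94.7% of Fancg, 74.9% of Rbbp8 and 62.1% of Fancm. This gave 37367 genes and unnamed loci, of which 17895 with a mean FPKM of at least 0.5 were tested on log2(FPKM + 1), a scale that understates the change of low genes. One model of the 5 groups was fitted across them in limma 3.58.1 (R 4.3.3), with moderated variances and a trend, on 10 residual degrees of freedom, and was tested on simulated data. Calls needed a Benjamini-Hochberg adjusted p under 0.05 and a 1.5-fold change. Groups came from the sample labels. Depth was estimated from the steps between low FPKM values at a gene's length: between 46.1% and 65.0% of values were whole multiples of 1 base (tolerance 0.05), against at most 9.31% at other steps. Since not nearly all values were whole, no count test was run, and reads are estimates.

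The member genes, their roles and the other gene lists were chosen with earlier results of these data known. Values in every library are given for members fixed by name, for members called higher, called at 12 h or between doses, and for the called members with the largest 24 h change in each role. Other members get means or folds. Promoters came from a RefSeq table of GRCr8 and are of another build than the FPKM. Alternatives changed the pseudocount, filter, scaling, thresholds, variance model, transcripts summed, replicate block and each library in turn.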

Additional observations from a re-analysis of the deposited data

Results flagged for a closer look

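Exo1 differed between 20 Gy and 5 Gy, by a log2 value of 1.08 at 12 h (SE 0.16, limma adjusted p = 0.0213) and 0.64 at 24 h (SE 0.16, limma adjusted p = 0.0408), a direct test of the doses at each time. All 3 libraries of 20 Gy were above all 3 libraries of 5 Gy at both times, and the level after 20 Gy was the closer to the control group. No member was called in 5 of the 15 fits that left out 1 library at 12 h and in 11 at 24 h. The call of Exo1 was thus lost in at least these fits. It was also lost at both times with the most abundant transcript alone or a fit of only the groups compared. At 12 h it was lost with a pseudocount of 0.1, and at 24 h with the replicate block or a limit of 2-fold. With named transcripts alone Exo1 was below the filter and was not tested. The proliferation marker Mki67 also differed between the doses in this direction, by 1.14 at 12 h and 1.30 at 24 h (limma adjusted p = 0.0318 and 0.00176), and its part in the difference of Exo1 was not tested.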

How the results depend on the processing

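Counts of members called are out of 41 in each comparison unless another number is given. With a limit of 2-fold, 6 and 0 were called at 12 h after 5 Gy and 20 Gy, 9 in the 20 Gy cells at 24 h, 4 between times at each dose and 0 between doses at 24 h. With no fold limit, these counts were 18, 8, 27, 18, 18 and 3, with 26 at 24 h after 5 Gy. At an unadjusted p under 0.05 with the fold limit, 4 were called at 12 h after 20 Gy, 6 and 2 between doses at 12 h and 24 h, and 4 in the interaction. Named transcripts alone left 32 members to test, with 6 and 1 called at 12 h, 10 and 10 at 24 h, 5 and 4 between times, and 0 between doses at either time. Brca2, Exo1, Fanca, Fancd2, Fancg, Fanci, Rad51ap1, Topbp1 and Xpa were below the filter in that setting, so it did not test their calls. With the most abundant transcript alone, 6 were called between times at 5 Gy and 0 between doses at either time. With a pseudocount of 0.1, 0 and 3 were called between doses at 12 h and 24 h. Quantile normalization gave 2 between doses at 12 h, and rescaling to the same sum gave 4 at 12 h after 20 Gy and 3 between doses at 24 h. Fitting only the groups compared gave 0 between doses at either time. The median log2 change of all genes at 24 h after 20 Gy was -0.14, and -0.03 after quantile normalization. The other counts stayed within 1.5 times.

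Leaving out 1 library gave 8 to 13 calls at 12 h after 5 Gy, 2 to 3 at 12 h after 20 Gy, 15 to 21 at 24 h after 5 Gy and 15 to 18 at 24 h after 20 Gy. Between times it gave 9 to 11 at 5 Gy and 8 to 17 at 20 Gy, and between doses 0 to 1 at 12 h and 0 to 3 at 24 h, with 0 in the interaction. Of the 47 calls of members against the control group, 8 were lost without at least 1 library and 25 under at least 1 setting. Directions turned for Ercc1 (1.73 and 1.27 at 12 h and 24 h after 5 Gy, and 1.70 in the 20 Gy cells at 24 h) with its named or most abundant transcript, for Xrcc4 (-0.25 and -0.0624 at 24 h after 5 Gy and 20 Gy) with named transcripts, and for Brca2 (-0.89 at 12 h after 20 Gy) and Xrcc6 (0.0203 at 24 h after 5 Gy) with the most abundant transcript. The setting itself sums fewer transcripts, and why these differ was not tested.

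The replicate numbers were not shown to pair the libraries: same-numbered libraries of different groups had correlations of their deviations between -0.177 and 0.232 (median 0.00875), with 4 of 30 over 0.1. With the replicate block, 0 members were called between doses at 24 h, and no other count of calls moved by over 1.5 times. Low members such as Exo1, Bard1, Clspn and Mdc1 rest on few estimated reads.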

Other observations

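Among the other break repair genes, Rad52 and Slx4 are described here, chosen after the values were seen. Rad52, which anneals single strands, was higher in all 4 comparisons with the control group. In the control group Rad52 was 4.57 ± 0.621 FPKM (SD, n = 3). At 12 h Rad52 was 11.2 ± 1.75 after 5 Gy and 11.1 ± 0.391 after 20 Gy, and at 24 h it was 22.6 ± 1.68 and 21.0 ± 2.49, each with n = 3. The rise at 24 h was 4.94-fold after 5 Gy (log2 2.09, SE 0.12, limma adjusted p = 2.31e-08) and 4.61-fold after 20 Gy (log2 1.98, SE 0.12, limma adjusted p = 3.55e-08). Slx4, the scaffold of nucleases that cut joint molecules, was also higher in all 4, with 8.98 ± 0.273 in the control group and 20.0 ± 2.29 and 19.6 ± 2.32 at 24 h after 5 Gy and 20 Gy (n = 3 each).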
